A study of Arabidopsis thaliana with 4 samples.

Results

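The CDK inhibitors of Arabidopsis thaliana are small proteins that bind cyclin-dependent kinases and hold back the cell cycle. They were followed here as 10 loci chosen by name, the 7 KIP-related protein genes KRP1 to KRP7 and the SIAMESE family genes SIM, SMR1 and SMR5, out of 33977 gene rows in each library. Of the 10, 9 had enough reads to be tested and SMR5 had none. Messenger RNA was sequenced from 4 single plants in the Col-0 background: 2 PPD3_OE plants, which overexpress PPD3, a protein of the PsbP-domain family, and 2 Col-0 wild-type plants, all kept on peat mix under a 16 h day at 22 °C until the stem bolted, then frozen. The labels do not give the promoter that drives PPD3, whether both PPD3_OE plants belong to 1 transgenic line, or the plants' age in days, and they name the sample both as a whole plant and as a rosette. The design holds 1 comparison, PPD3_OE against Col-0.

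KRP proteins carry at their end a short region related to the animal inhibitor p27Kip1, through which they bind the kinase CDKA;1 and its D-type cyclin partners and so restrain entry into DNA replication. SIAMESE-related proteins bind CDKs as well and are known for stopping mitosis while DNA replication goes on, the endocycle, by which leaf cells, trichomes and giant cells of the sepal become polyploid. In leaves, both families take part in the passage of cells out of division and into expansion.

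Gene counts summed to between 33771093 and 40727172 per library. PPD3 itself, taken as locus AT1G76450, had 113628 and 111903 counts in PPD3_OE plants 1 and 2, and 3800 and 2460 counts in Col-0 plants 1 and 2, a log2 fold change of 5.14 ± 0.31 (SE). Leaf mesophyll markers were abundant in all 4 libraries, at a summed level of 28687 and 32627 CPM in PPD3_OE plants and 32822 and 26882 CPM in Col-0 plants, while the root list summed to 47.2 and 32.7 CPM in PPD3_OE plants and 45.2 and 45.9 CPM in Col-0 plants and came almost wholly from PYK10. The other 4 root markers had too few reads to be tested. CPM stands for counts scaled to library size after TMM correction. Means carry the SD over 2 plants, and each log2 fold change, PPD3_OE over Col-0, carries its SE from edgeR's quasi-likelihood fit over all genes. In bulk RNA, a change in the number of cells of a type and a change in RNA per cell cannot be told apart.

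The ends of the 7 KRP genes are not near-identical at the level of bases, which matters for counting because reads of near-identical copies cannot be placed. The lines below give, for each gene, the 45 coding bases that end at the last TGG codon, from the region that encodes the CDK-binding end. They were read from TAIR10.1 and lined up at the TGG codon without gaps. Capitals mark the 11 positions at which all 7 lines then carry the same base. KRP2 appears to hold an extra codon before its last GGa, so its earlier positions are out of register with the other lines.
KRP1: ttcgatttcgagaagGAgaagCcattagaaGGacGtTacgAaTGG
KRP2: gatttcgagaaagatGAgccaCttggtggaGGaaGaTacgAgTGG
KRP3: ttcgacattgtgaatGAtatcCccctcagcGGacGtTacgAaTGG
KRP4: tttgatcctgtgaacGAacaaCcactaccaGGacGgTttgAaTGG
KRP5: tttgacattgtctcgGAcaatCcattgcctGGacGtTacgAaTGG
KRP6: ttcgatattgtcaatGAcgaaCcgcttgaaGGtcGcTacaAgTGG
KRP7: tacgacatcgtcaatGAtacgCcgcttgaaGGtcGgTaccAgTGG
Counted position by position in this way, KRP6 and KRP7 had the most bases in common, 36 of 45. The pairs with KRP2 had the fewest, down to 17 with KRP5. Because KRP2 appears out of register, its counts do not measure how distant it is. Over their whole exon sequence, no 2 of the 10 genes shared an exact stretch longer than 18 bases, against reads of 150 bases, so no read could match 2 members over its length.

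Exons of 4 members overlap a gene on the opposite strand in TAIR10.1, and the library kit does not mark the strand. SMR5 (AT1G07500, chr1:2304766-2305031, minus strand), which is known to respond to DNA damage and oxidative stress, is annotated with 1 exon of 266 bases that lies wholly inside the first exon of FTSH10, a mitochondrial protease gene on the other strand, before FTSH10's coding part. SMR5 had 0 counts in all 4 plants, while FTSH10 stood at 49.6 and 40.3 CPM in PPD3_OE plants and at 37.8 and 39.9 CPM in Col-0 plants. A count of 0 allows up to 0.0749 and 0.0875 CPM of assigned reads in PPD3_OE plants 1 and 2 and up to 0.0812 and 0.0862 CPM in Col-0 plants 1 and 2, at 3 counts per library and for counting error only. That limit does not reach the transcript itself. Of 1188 nuclear genes whose whole exon length lies in exons of another gene in TAIR10.1, 95.6% were at 0 in all 4 libraries, against 21.1% of 22503 genes that share no exon base, and among protein-coding genes alone the shares were 96.5% of 368 and 14.7% of 19818. The counts do not show whether SMR5 was expressed.

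SMR1, SIM and KRP4 overlap other genes in part. AT3G10527, on the opposite strand, covers 40.3% of the 826 exon bases of SMR1, AT5G04475 covers 31.4% of the 792 exon bases of SIM, and the end of CB5-B covers 38.7% of the 2391 exon bases of KRP4. AT3G10527 and AT5G04475 had 0 counts in every library, while CB5-B stood at 23.5 and 26.8 CPM in PPD3_OE plants and 21.7 and 21.3 CPM in Col-0 plants. The part covered in KRP4 lies after its coding exons. The other 6 KRP genes share no exon base with another gene. Reads lost to a partial overlap were not measured: 1506 of 8857 partly overlapped genes were at 0 in all 4 libraries, against 4750 of the 22503 genes without overlap.

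**Figure D1:**
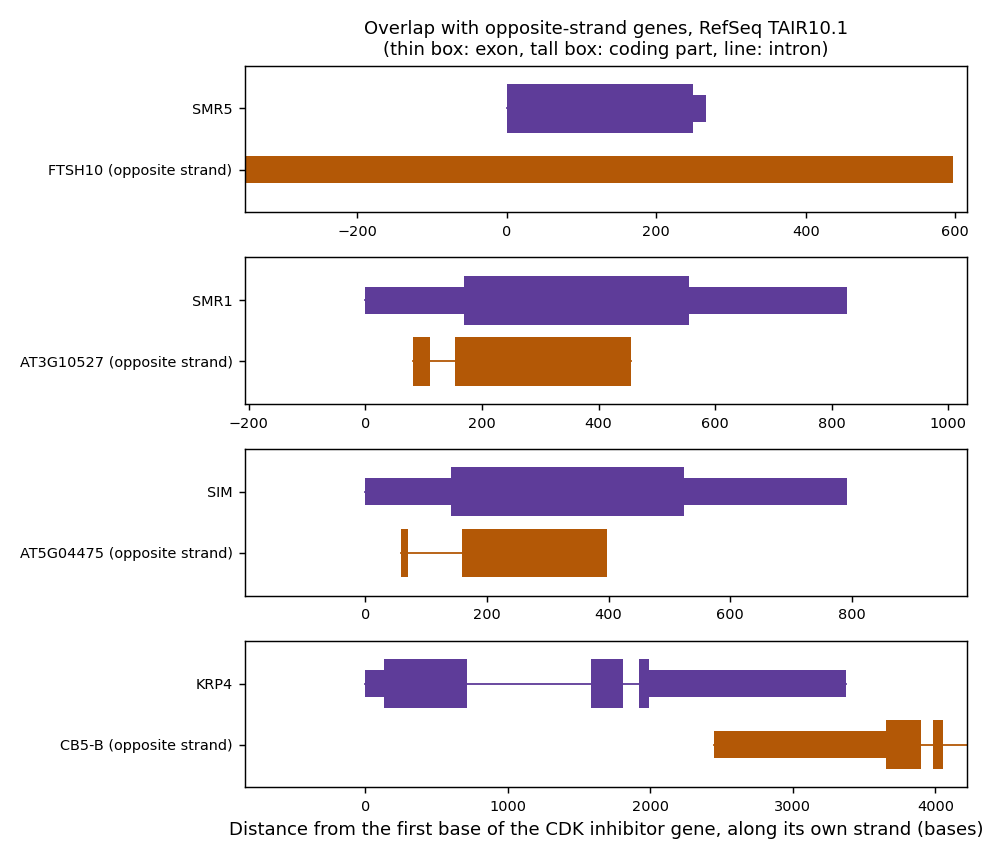
Exon maps of the 4 CDK inhibitor genes that overlap a gene on the opposite strand, with distance in bases from the inhibitor gene's first base along its own strand on the x axis. Purple is the inhibitor gene and brown the overlapping gene, with coding parts as taller boxes; SMR5 lies wholly within an exon of FTSH10, which runs past the left edge, while SMR1, SIM and KRP4 keep 493, 543 and 1465 unshared exon bases.

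The KRP family was at about the same summed level in both genotypes, but its make-up differed. KRP3 and KRP7, the least abundant members in Col-0, were 3.14-fold and 2.21-fold higher in PPD3_OE plants, KRP1 was 1.49-fold higher, and KRP4 was 1.83-fold lower. KRP2 was lower by less, and the differences of KRP5 and KRP6 were smaller than their SE. By edgeR, 0 of 9 tested members passed an adjusted p of 0.05, where 0.00502% of the 19919 genes tested passed, and 4 members had an unadjusted p under 0.05, against 33.1% of all genes tested. DESeq2, the other count test, called 2 members higher, KRP3 and KRP7, against 8.35% of all genes to which it gave an adjusted p, and 1 lower, KRP4, against 9.65%. Together these are 33.3% of the 9, against 18.0%. The 3 members under an edgeR adjusted p of 0.10 are these same genes, where 9.56% of all genes tested were higher, 11.2% lower and 20.7% either. Apart from the edgeR adjusted p of 0.05, each of these thresholds was passed by many genes. The number of members is not far from the general background, and the results below describe the size and evenness of each gene's difference. The median absolute log2 fold change was 0.451 over the 9 tested members and 0.577 over the 7 KRP genes, against 0.345 over all genes tested.

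KRP3 (AT5G48820, chr5:19792270-19794480, minus strand, 4 exons), whose overexpression is known to give leaves with fewer and larger cells, showed the largest difference among the members. It had 185 and 145 counts in PPD3_OE plants and 49 and 52 counts in Col-0 plants, or 4.62 and 4.23 CPM in PPD3_OE plants against 1.33 and 1.49 CPM in Col-0 plants. The plants of each genotype lay close together and the groups far apart. The log2 fold change was 1.65 ± 0.19 (edgeR adjusted p = 0.0623, DESeq2 adjusted p = 4.94e-05). No gene that was higher had a lower edgeR adjusted p, but the value is a tie and does not rank KRP3 first. PPD3 and PCNA1 share it with smaller unadjusted edgeR p, 4.04e-05 and 3.58e-04, against 7.23e-04 for KRP3. DESeq2 no longer called KRP3 without Col-0 plant 2 (adjusted p = 0.0763), without PPD3_OE plant 1 (adjusted p = 0.127) or without PPD3_OE plant 2 (adjusted p = 0.103), while the log2 fold change stayed between 1.54 and 1.74 over all alternatives run.

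KRP7 (AT1G49620, chr1:18365336-18366744, minus strand, 3 exons), a substrate of the F-box protein FBL17 in pollen together with KRP6, had 4.62 and 4.03 CPM in PPD3_OE plants and 2.30 and 1.61 CPM in Col-0 plants. Both PPD3_OE plants were above both Col-0 plants, which differed from each other more than the PPD3_OE plants did. Its log2 fold change was 1.14 ± 0.25 (edgeR adjusted p = 0.0765, DESeq2 adjusted p = 0.0164). DESeq2 kept the call only without Col-0 plant 1.

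KRP1 (AT2G23430, chr2:9976590-9978090, minus strand, 4 exons), also called ICK1, the inhibitor whose overexpression gives small, serrated leaves, had 22.8 and 17.8 CPM in PPD3_OE plants and 14.6 and 12.7 CPM in Col-0 plants. The groups did not overlap, but PPD3_OE plant 1 was well above plant 2. The log2 fold change of 0.58 ± 0.17 passed in neither tool (edgeR adjusted p = 0.107, DESeq2 adjusted p = 0.0850).

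On the lower side, KRP4 (AT2G32710, chr2:13873362-13876737, plus strand, 3 exons), known from the shoot meristem, where it ties division to cell size, had 17.8 and 11.9 CPM in PPD3_OE plants and 26.6 and 27.6 CPM in Col-0 plants. The Col-0 plants were nearly equal, and both PPD3_OE plants were below them by unequal amounts. The log2 fold change was -0.87 ± 0.22 (edgeR adjusted p = 0.0878, DESeq2 adjusted p = 0.0155). It was -1.19 without PPD3_OE plant 1 and -0.61 without PPD3_OE plant 2, and DESeq2 made the call only with all 4 plants or without PPD3_OE plant 1 (adjusted p = 0.00941). CB5-B, whose end overlaps KRP4, had a log2 fold change of 0.23 ± 0.11 (edgeR adjusted p = 0.238). KRP2 (AT3G50630, chr3:18800306-18801595, plus strand, 3 exons), which restrains lateral root founding and is lowered by auxin, had 12.6 and 14.7 CPM in PPD3_OE plants and 16.4 and 19.1 CPM in Col-0 plants. The groups did not overlap, and the log2 fold change of -0.38 ± 0.15 did not pass (edgeR adjusted p = 0.158, DESeq2 adjusted p = 0.229).

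For the remaining KRP genes the difference was smaller than its SE. KRP5 (AT3G24810, chr3:9060836-9062003, plus strand, 3 exons), known from cell elongation in roots and hypocotyls, was the steadiest member, with 4.97 and 4.58 CPM in PPD3_OE plants and 4.46 and 4.25 CPM in Col-0 plants (log2 fold change 0.13 ± 0.16, edgeR adjusted p = 0.594). KRP6 (AT3G19150, chr3:6616330-6617951, minus strand, 2 exons), known from the male germ line, where it is degraded so that the generative cell can divide, had 12.5 and 6.88 CPM in PPD3_OE plants and 6.06 and 9.54 CPM in Col-0 plants. The groups overlapped, and its log2 fold change, 0.31 ± 0.38, turned to -0.175 without PPD3_OE plant 1. All told, 4 of 9 tested members were higher in both PPD3_OE plants than in both Col-0 plants, against 33.9% of all genes tested, and 3 were lower, against 33.0%. That makes 77.8% of the members and 67.0% of all genes.

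**Figure D2:**
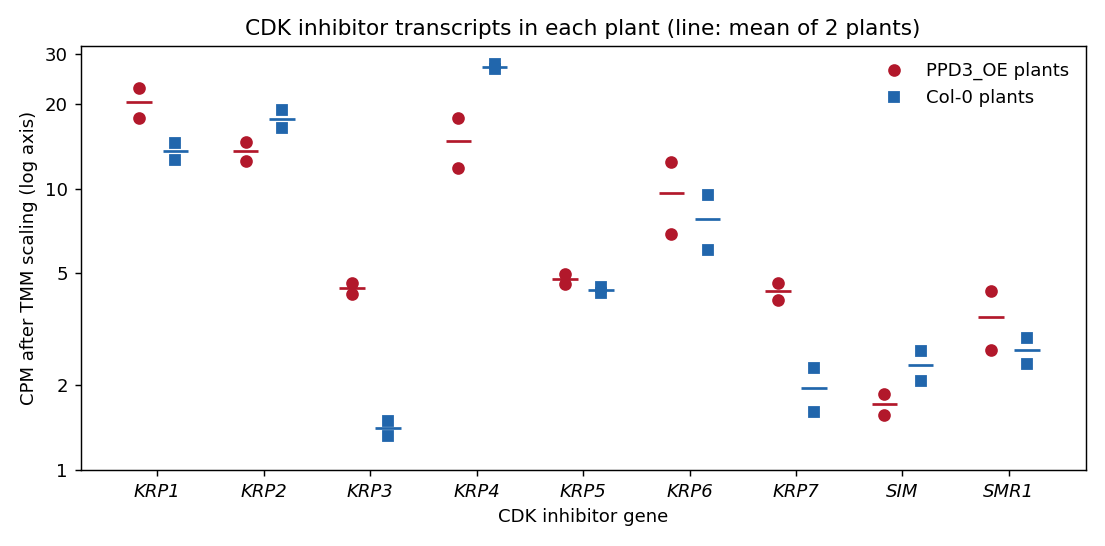
Levels of the 9 tested CDK inhibitor genes as CPM after TMM scaling on a log axis, with each point a plant and lines at the mean of 2 plants, PPD3_OE in red and Col-0 in blue. KRP3, KRP7, KRP1 and KRP5 are higher and KRP4, KRP2 and SIM lower in both PPD3_OE plants, and KRP6 and SMR1 overlap.

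Summed over the 7 genes, KRP transcripts were at 79.8 and 64.1 CPM in PPD3_OE plants and at 71.8 and 76.3 CPM in Col-0 plants, a ratio of the means of 0.972 with overlapping plants. Levels of different genes are compared per kilobase of exon. On that scale KRP1 led the family in PPD3_OE plants, with 19.4 and 15.2 CPM per kilobase, followed by KRP2 with 11.1 and 13.0. In Col-0 plants KRP2 came first, with 14.6 and 16.9 CPM per kilobase, and KRP1 (12.4 and 10.8) and KRP4 (11.1 and 11.6) could not be ordered, since their plants overlapped. KRP4 was at 7.44 and 4.97 CPM per kilobase in PPD3_OE plants, within the range of KRP6 (8.20 and 4.53). KRP3 and KRP7 were the lowest KRP genes in both genotypes: 3.86 and 3.54 for KRP3 and 3.83 and 3.34 for KRP7 in PPD3_OE plants, where they overlapped, against 1.11 and 1.25 for KRP3 and 1.91 and 1.33 for KRP7 in Col-0 plants.

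As shares of the summed level per kilobase, KRP2 and KRP4 together made up 31.5% and 36.5% in PPD3_OE plants and 51.8% and 54.3% in Col-0 plants. KRP1, KRP3 and KRP7 together made up 46.0% and 44.8% in PPD3_OE plants and 31.0% and 25.5% in Col-0 plants. These pairings were made after the values were seen and describe the 4 plants, with no test. The ratio of KRP4 to KRP1 per kilobase was 0.384 and 0.327 in PPD3_OE plants and 0.899 and 1.07 in Col-0 plants. Over unshared exon bases it was 0.626 and 0.534 in PPD3_OE plants and 1.47 and 1.75 in Col-0 plants, which puts KRP4 above KRP1 in both Col-0 plants. Counting only the exon bases that KRP4 does not share raised its level to 12.1 and 8.10 CPM per kilobase in PPD3_OE plants and to 18.2 and 18.9 in Col-0 plants, where it then came first. The joint share of KRP2 and KRP4 was then 36.6% and 40.3% in PPD3_OE plants and 57.8% and 59.9% in Col-0 plants.

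**Figure D3:**
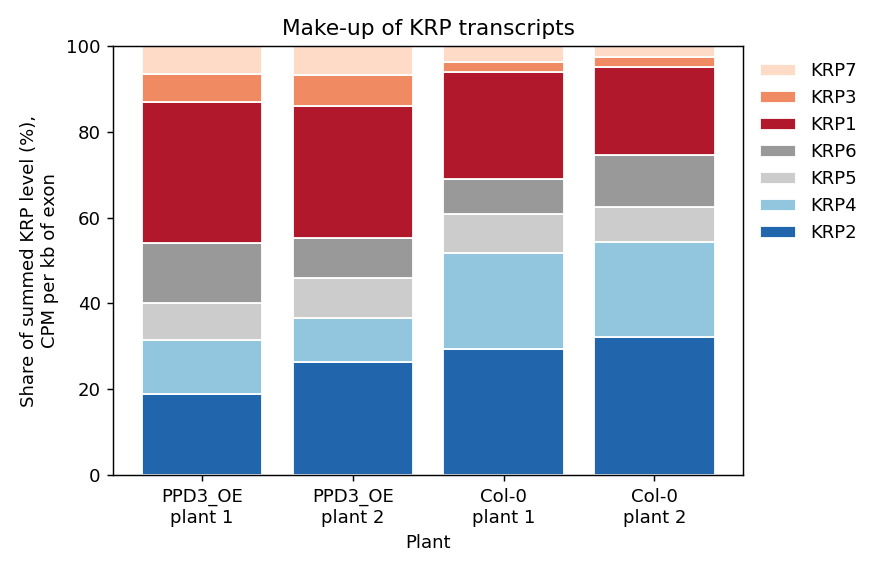
Share of each KRP gene in the summed KRP level of each plant, in percent of CPM per kilobase of exon, with PPD3_OE plants on the left and Col-0 plants on the right. The blue segments, KRP2 and KRP4, take 31.5% and 36.5% in PPD3_OE plants and 51.8% and 54.3% in Col-0 plants.

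The stretch before the annotated start is shown for the 4 members with an unadjusted edgeR p under 0.05. Each line holds the 250 bases before the RefSeq start in TAIR10.1, read along the gene's strand. Capitals mark matches on either strand to AACGG, the core of the mitosis-specific activator element known from promoters of genes used at division, and to CTTNNNNNNNAAG, the element bound by the DNA damage regulator SOG1; no 2 matches overlap.
KRP3, chr5:19794481-19794730, minus strand: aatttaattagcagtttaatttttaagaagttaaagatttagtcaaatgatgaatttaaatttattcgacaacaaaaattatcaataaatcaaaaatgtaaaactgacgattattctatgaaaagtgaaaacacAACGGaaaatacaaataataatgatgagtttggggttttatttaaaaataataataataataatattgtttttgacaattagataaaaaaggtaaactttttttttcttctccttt
KRP7, chr1:18366745-18366994, minus strand: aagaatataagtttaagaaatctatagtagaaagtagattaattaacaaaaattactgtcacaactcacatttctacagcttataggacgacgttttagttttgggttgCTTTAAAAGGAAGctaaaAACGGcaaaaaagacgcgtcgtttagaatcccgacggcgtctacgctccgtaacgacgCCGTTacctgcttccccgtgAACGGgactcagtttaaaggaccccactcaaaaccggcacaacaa
KRP1, chr2:9978091-9978340, minus strand: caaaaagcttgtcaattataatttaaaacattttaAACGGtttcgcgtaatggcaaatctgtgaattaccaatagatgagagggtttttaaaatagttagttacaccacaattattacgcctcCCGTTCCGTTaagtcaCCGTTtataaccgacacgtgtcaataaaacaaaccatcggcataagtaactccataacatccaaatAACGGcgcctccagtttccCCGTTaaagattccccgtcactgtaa
KRP4, chr2:13873112-13873361, plus strand: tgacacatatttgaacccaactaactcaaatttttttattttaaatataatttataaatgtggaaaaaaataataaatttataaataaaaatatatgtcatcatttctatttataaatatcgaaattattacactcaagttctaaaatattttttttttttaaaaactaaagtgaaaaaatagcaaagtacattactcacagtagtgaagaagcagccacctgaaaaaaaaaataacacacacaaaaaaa
AACGG occurred 6 times before KRP1, 3 times before KRP7 and once before KRP3, and 20.6% of 37879 nuclear promoters of this length hold at least 1 match. KRP2, which was lower in both PPD3_OE plants, also has 2 matches, and KRP5, which was higher in both, has none. KRP4, KRP6, SIM, SMR1 and SMR5 have none either, so matches did not sort the members by direction. The SOG1 element, found in 9.49% of promoters, matched once before KRP7 and at 2 places before SMR5, as CTTCCAGAACAAG 96 bases and CTTATTAGGAAAG 32 bases before the annotated start, which for SMR5 is its coding start. The E2F element, searched as TTTCCCGC, TTTCCCGG, TTTCGCGC, TTTCGCGG, TTTGCCGC, TTTGCCGG, TTTGGCGC and TTTGGCGG, is in 3.27% of promoters and in none of these 10. Matches of letters are a description and do not show that a factor binds.

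SIM and SMR1 were low and did not pass in either tool. SIM (AT5G04470, chr5:1266625-1267416, minus strand, 1 exon), which keeps trichomes single-celled, had 1.87 and 1.58 CPM in PPD3_OE plants and 2.65 and 2.07 CPM in Col-0 plants, from 54 to 98 counts per library. Both PPD3_OE plants were below both Col-0 plants (log2 fold change -0.45 ± 0.25, edgeR adjusted p = 0.269). SMR1 (AT3G10525, chr3:3281306-3282131, minus strand, 1 exon), also called LGO, which makes giant cells in sepals, had 2.67 and 4.32 CPM in PPD3_OE plants and 2.95 and 2.38 CPM in Col-0 plants. The groups overlapped, and the log2 fold change of 0.39 ± 0.31 was 0.00284 without PPD3_OE plant 2. The 5 trichome regulators listed had a median log2 fold change of -0.09, with 2 positive and 3 negative values. GL3, a bHLH factor that starts trichomes, stood at 2.09 ± 0.11 CPM in PPD3_OE plants and 0.860 ± 0.161 CPM in Col-0 plants and was the 1 gene of the list called by DESeq2 (adjusted p = 0.0325), a call lost with each of the 4 plants left out in turn. GL1, a MYB factor that starts trichomes, had a log2 fold change of 1.38 ± 0.46, TTG1, a partner of both, -0.48 ± 0.15, and CPC, an inhibitor of trichome fate, -0.09 ± 0.22, and none of these passed. GL2, which acts in trichome outgrowth, was at 9.31 ± 0.17 CPM in PPD3_OE plants and 10.6 ± 2.5 CPM in Col-0 plants (SD, n = 2 each).

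Among 11 other SIAMESE-related genes, 0 passed in edgeR or DESeq2 and 0 had an unadjusted edgeR p under 0.05. Their median log2 fold change was -0.03, against 0.01 over all genes tested, with 5 positive and 6 negative values. The member with the smallest p upward was SMR4, which slows divisions in the stomatal lineage, at 0.726 ± 0.243 CPM in PPD3_OE plants and 0.282 ± 0.170 CPM in Col-0 plants (log2 fold change 1.37 ± 0.56), and downward SMR2, at 2.80 ± 0.45 CPM in PPD3_OE plants and 4.35 ± 0.99 CPM in Col-0 plants (log2 fold change -0.63 ± 0.26). SMR7, induced together with SMR5 by DNA damage, stood at 0.466 ± 0.165 CPM in PPD3_OE plants and 0.402 ± 0.081 CPM in Col-0 plants. Its counts were 12 to 20 per library, and its groups overlapped (log2 fold change 0.20 ± 0.43).

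**Figure D4:**
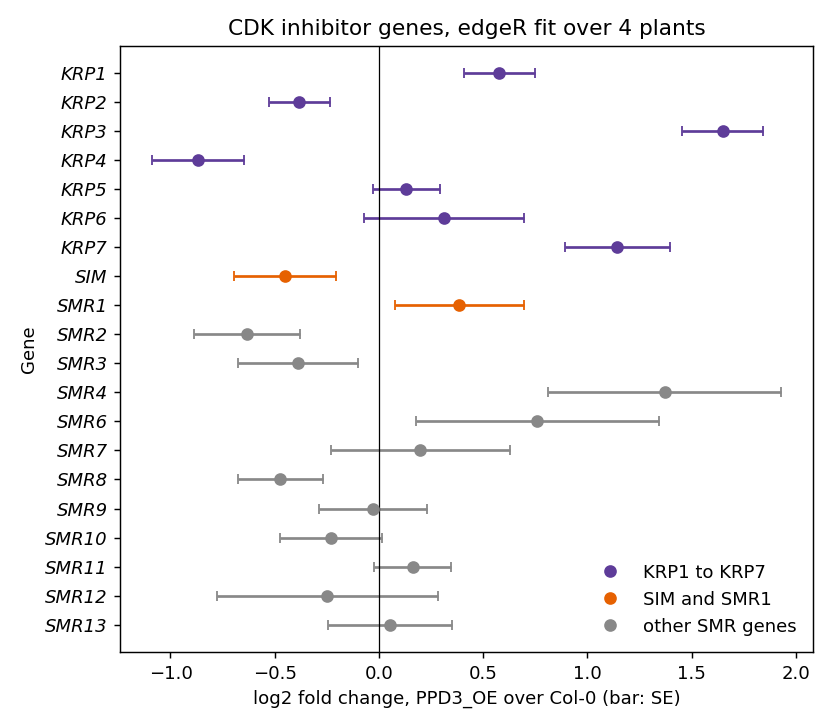
Log2 fold change, PPD3_OE over Col-0, with its SE from the edgeR fit for the 9 tested CDK inhibitor genes and 11 other SIAMESE-related genes. KRP3 at 1.65 and KRP4 at -0.87 mark the ends of the KRP range, and the other SIAMESE-related genes lie on both sides of 0.

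The kinases and cyclins on which these inhibitors act were then set beside them. CDKA;1, the main target of KRP proteins, was at 64.9 ± 0.5 CPM in PPD3_OE plants and 69.5 ± 1.0 CPM in Col-0 plants (log2 fold change -0.10 ± 0.10, edgeR adjusted p = 0.511). All 4 B-type kinases, which act at mitosis, were higher in both PPD3_OE plants and were called by DESeq2, against 33.9% and 8.35% of all genes, led by CDKB1;2 at 5.19 ± 0.25 CPM in PPD3_OE plants against 2.77 ± 0.18 CPM in Col-0 plants (log2 fold change 0.91 ± 0.17). All 9 tested D-type cyclins were higher in both PPD3_OE plants, with a median log2 fold change of 0.58, and 4 were called by DESeq2, against the same shares. CYCD3;3, a cyclin of dividing leaf cells, had the smallest p, at 12.9 ± 1.1 CPM in PPD3_OE plants and 6.37 ± 0.56 CPM in Col-0 plants (log2 fold change 1.02 ± 0.15, DESeq2 adjusted p = 3.60e-04). By edgeR, 0 genes of either list passed an adjusted p of 0.05, and 4 of 5 kinases and 7 of 9 cyclins had an unadjusted p under 0.05, all upward, against 16.1% of all genes tested upward. DESeq2 called 2 kinases and 5 cyclins without Col-0 plant 1, and 0 of either list with any of the other plants left out.

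Of 8 genes that act in the removal of KRP and other cell cycle proteins, 0 passed in edgeR at 0.05 and 2 had an unadjusted p under 0.05, both downward. That count is close to the background, where 3381 of 19919 genes tested had such a p downward and 33.1% in either direction. Of the 8 genes, 6 were lower in both PPD3_OE plants than in both Col-0 plants, against 33.0% of all genes tested. The reverse held for 1, against 33.9%. FBL17, the F-box protein that marks KRP6 and KRP7 for degradation, was at 41.8 ± 0.6 CPM in PPD3_OE plants and 35.9 ± 2.6 CPM in Col-0 plants (log2 fold change 0.22 ± 0.11, edgeR adjusted p = 0.228). The other 7 had negative values, and the median of the list was -0.23. With all 4 plants, DESeq2 called 1 of the 8 genes lower, against 9.65% of all genes. It was SKP2A, an F-box protein of the cell cycle, at 11.9 ± 2.2 CPM in PPD3_OE plants and 18.7 ± 0.6 CPM in Col-0 plants (log2 fold change -0.66 ± 0.17, DESeq2 adjusted p = 0.0372). SKP2B had a larger difference, -0.71 ± 0.22, and was not called (DESeq2 adjusted p = 0.0664). Without a plant, the DESeq2 adjusted p of SKP2A lay between 0.127 and 0.657.

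Downstream of the kinases, the retinoblastoma and E2F list had a median log2 fold change of 0.23 over 9 genes, and DESeq2 called 2 higher, against 8.35% of all genes, and 0 lower. These were DEL1, an atypical E2F that delays the endocycle, at 5.62 ± 1.38 CPM in PPD3_OE plants and 2.31 ± 0.30 CPM in Col-0 plants (log2 fold change 1.28 ± 0.26), and DEL3 (0.92 ± 0.21). DEL2 was at 4.38 ± 0.05 CPM in PPD3_OE plants and 5.19 ± 0.23 CPM in Col-0 plants and passed in neither tool. Among 7 genes of endocycle onset, which include DEL1, DESeq2 called 2 higher: DEL1 and CDT1A, a factor that licenses replication origins (log2 fold change 1.00 ± 0.19). GTL1, which ends the endocycle in trichomes, had a value of -0.25 ± 0.13. With a plant left out, the DESeq2 call of DEL1 held only without Col-0 plant 1 (adjusted p = 0.0155), that of CDT1A held without Col-0 plant 1 or PPD3_OE plant 1, and that of DEL3 was lost in all 4 cases.

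In the DNA damage list, SOG1, the regulator that turns on SMR5 and SMR7, overlapped between the genotypes, at 21.7 ± 1.2 CPM in PPD3_OE plants and 23.0 ± 0.6 CPM in Col-0 plants (log2 fold change -0.08 ± 0.10). DESeq2 called 3 of the 8 genes higher, against 8.35% of all genes. BRCA1, a repair gene, had the smallest p, at 15.9 ± 3.0 CPM in PPD3_OE plants and 7.03 ± 0.38 CPM in Col-0 plants (log2 fold change 1.17 ± 0.18, DESeq2 adjusted p = 1.98e-04), and the others were PARP (AT4G02390) and WEE1, a kinase that blocks CDKs when replication stalls. Without Col-0 plant 1 DESeq2 called 2 of these genes, without PPD3_OE plant 2 it called 1, and without either other plant 0. By edgeR, 0 genes of these lists passed an adjusted p of 0.05.

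Marker lists of dividing cells and of the stomatal lineage had higher summed levels in the same PPD3_OE plants. All 12 dividing-cell genes were higher in both PPD3_OE plants, with a median log2 fold change of 0.96, 12 called by DESeq2 and 0 by edgeR, where all 12 had an unadjusted p under 0.05. Over all genes tested, 33.9% were higher in both PPD3_OE plants, 8.35% were called higher by DESeq2 and 16.1% had such a p upward. DESeq2 called 12 of them without Col-0 plant 1, 2 without Col-0 plant 2 or PPD3_OE plant 1, and 1 without PPD3_OE plant 2. Their summed level was 307 and 310 CPM in PPD3_OE plants and 175 and 146 CPM in Col-0 plants. The replication clamp PCNA1 had the smallest p, at 24.5 ± 1.4 CPM in PPD3_OE plants and 11.5 ± 0.3 CPM in Col-0 plants. Of 5 stomatal lineage genes, 4 were higher in both PPD3_OE plants and 3 were called by DESeq2, against the same shares: EPF2, a signal peptide of early lineage cells (log2 fold change 2.01 ± 0.24), SPCH, which starts the lineage (1.80 ± 0.24), and TMM, a receptor of the lineage (1.32 ± 0.20). FAMA, which acts at the last step, was at 20.7 ± 0.5 CPM in PPD3_OE plants and 20.4 ± 4.0 CPM in Col-0 plants. With a plant left out, DESeq2 called 0 (without Col-0 plant 2) to 3 of the 5. The list summed to 46.4 and 44.6 CPM in PPD3_OE plants and 33.5 and 25.2 CPM in Col-0 plants. In the shoot meristem and flower list, 8 of 10 genes could be tested and CLV3 was at 0 counts in all 4 plants. The median log2 fold change of the 8 was 0.60. The 6 floral genes LFY (0.47), AP1 (0.52), AP3 (1.11), PI (1.27), AG (1.10) and SEP3 (0.67) had positive values, 4 of them higher in both PPD3_OE plants. None of the 6 was called with all 4 plants, though DESeq2 called genes of this list higher without Col-0 plant 1. DESeq2 called the meristem homeobox genes STM (-0.96 ± 0.15) and KNAT1 (-1.13 ± 0.31) lower, against 9.65% of all genes, and lost both calls without Col-0 plant 2 or PPD3_OE plant 1. The list summed to 42.3 and 45.5 CPM in PPD3_OE plants and 62.9 and 67.3 CPM in Col-0 plants, a sum made up mostly of STM and KNAT1, so it does not describe the floral genes. The part of these cell populations in the differences of KRP1, KRP3, KRP4 and KRP7 was not tested.

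**Figure D5:**
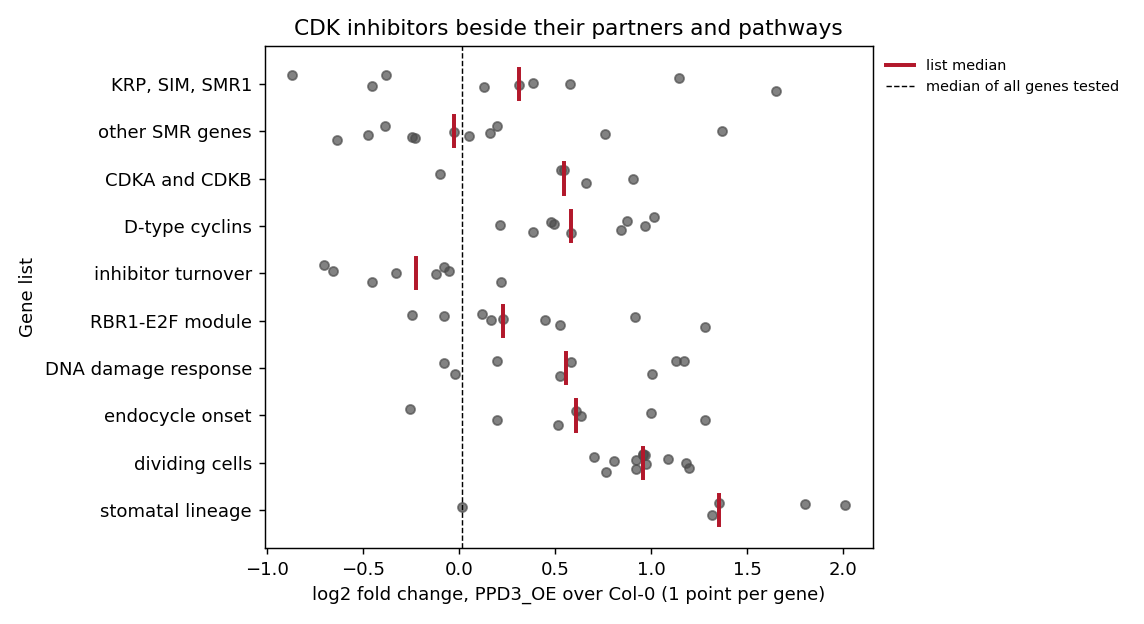
Log2 fold change, PPD3_OE over Col-0, of each tested gene in the CDK inhibitor group and 9 related lists, with 1 point per gene, a red line at each list median and a dashed line at the median of all genes tested. The inhibitors spread to both sides of 0, while all D-type cyclins and dividing-cell genes lie to the right.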

How the data were processed

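For each library the authors deposited a file of read counts by gene, in whole numbers and not normalized. Per the labels' protocols, poly(A) libraries were sequenced as 150-base single reads with a kit that does not mark the strand. The submitters' processing notes name TAIR10 and DESeq2; for the aligner, counting tool and annotation, the sources used here give no name. The 5 rows without a gene bear the names HTSeq-count uses and were kept out of totals: 0.713% to 0.941% of reads had no feature, 3.67% to 4.18% were ambiguous and 4.18% to 5.61% aligned at several places.

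Testing was done in edgeR 4.0.16 under R 4.3.3, with its default filter (minimum count 10, total 15), TMM scaling, the quasi-likelihood F test, and Benjamini-Hochberg adjustment over 19919 genes at 0.05. DESeq2 1.42.0 served as the second test, with 4794 genes left without an adjusted p. The SE is the log2 fold change divided by the square root of F. Precision is limited by 2 plants per genotype (residual degrees of freedom 2, prior 2.36), and limits on counts cover counting error only. Both tests were also run on simulated counts with the same spread between plants for every gene. That simulation cannot show how the tests behave on these data, where the spread differs between genes. RefSeq's TAIR10.1 gave exon lengths, overlaps and sequences by locus identifier for 32548 of 33977 rows; the authors' gene models may differ.

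The members, the related gene lists and the tests were chosen with earlier results of these data known. All 10 members are named, then from each related list the gene with the smallest edgeR p in each direction, and CDKA;1, FBL17, SOG1 and SMR7; markers and any other gene were picked with values in view. Alternatives were other scalings and filters, DESeq2, removal of organelle genes, a replicate block, removal of single plants and an adjusted p of 0.10.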

Additional observations from a re-analysis of the deposited data

How the results depend on the processing

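For 8 of the 9 tested members the log2 fold change kept its sign under every alternative run. KRP6 ranged from -0.175 without PPD3_OE plant 1 and -0.00269 without Col-0 plant 1 to 0.678 without PPD3_OE plant 2 in edgeR, and was -0.184 in DESeq2 without PPD3_OE plant 1; SMR7, no member, ranged from -0.203 without PPD3_OE plant 2 and -0.00835 without Col-0 plant 2 to 0.533 without PPD3_OE plant 1, and was -0.204 in DESeq2 without PPD3_OE plant 2. Of the markers, GL2 ranged from -0.423 to 0.0458 in edgeR with a plant left out and was 0.066 in DESeq2 without Col-0 plant 1, CPC 0.00875 in DESeq2 without Col-0 plant 1, and FAMA ranged from -0.189 (without Col-0 plant 2) through -0.00975 (without PPD3_OE plant 1) to 0.2 in edgeR and was -0.173 and -0.0163 in DESeq2 without Col-0 plant 2 and PPD3_OE plant 1, -0.0268 scaled by library size, -0.00855 with a filter of 5 CPM and -0.00834 without a filter. Over all genes, edgeR called 0 higher and 1 lower, with 3206 and 3381 at an unadjusted p under 0.05. DESeq2 called 1703 higher and 1969 lower, with 3 members, and with a plant left out, a setting chosen after seeing the data, 465 higher and 1275 lower without PPD3_OE plant 1 (1 member), 299 and 663 without PPD3_OE plant 2 (0 members), 2352 and 2153 without Col-0 plant 1 (2 members), and 156 and 354 without Col-0 plant 2 (0 members). An adjusted p of 0.10 gave 1904 higher, 2225 lower and 3 members. Without a filter edgeR called 3 higher and 10 lower, and with a filter of 5 CPM, which keeps 4 members, 0 lower. Leaving out any plant gave 0 lower. No member passed edgeR at 0.05 under any setting; the lowest adjusted p was 0.0502, for KRP3 without a filter. The labels name no batch and do not say whether same-numbered plants were paired. Across genes, the deviations of plants 1 and 2 from their genotype means correlated at -0.364 between the genotypes. PPD3_OE plant 1 thus tended to deviate in the direction of Col-0 plant 2, and whether plants shared a factor was not tested. With the replicate block edgeR called 0 higher, 0 lower and 0 members, and with the crossed replicate block, chosen after seeing the data, 17 higher, 120 lower and 0 members. Causes of these moves were not tested. The summed KRP ratio ran from 0.866 to 1.08. Depth limits SMR4, SMR7 and SMR12 and the markers GL1 and LFY, all under 1 CPM in every plant.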
